A study of Mus musculus with 20 samples.

Results

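The 918 regions described here gained accessible chromatin in the Nkx2.1 lineage of the neocortex after deletion of Tcf4. They were chosen by accessibility itself: from 32120 consensus ATAC-seq regions, those whose mean read concentration, as given by the authors on a log2 scale, was higher by 1 or more in Tcf4 cKO than in WT cells. An interval of chromosome 2 around Cwc22 was left out. It held 4 consensus regions, and 3 of them met the threshold. The 918 regions were 2.86% of the regions considered, and 1342 regions fell by 1 or more and are called losing regions.

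WT cells came from Nkx2.1-Cre pups with the Ai3 reporter, and Tcf4 cKO cells from Tcf4 f/f pups with Nkx2.1-Cre and Ai3. GFP-positive cells were sorted from the neocortex at postnatal day 7 or 8, and each genotype had 2 libraries of ATAC-seq and 2 Cut&Tag libraries each for H3K4me1, H3K27ac and H3K27me3. Tcf4 occupancy was measured with 2 anti-Flag Cut&Tag libraries from the Tcf4-tag line, in which the endogenous Tcf4 carries HA and Flag tags. The tags depend on Cre and are expressed in the Nkx2.1 lineage with Nkx2.1-Cre, and sorted cells of that lineage were used. The Cre acts from ventral telencephalic progenitors onward, so the sorted population mixes oligodendrocyte precursors, interneurons, astrocyte precursors and their descendants. In such bulk libraries a larger share of cells that carry an open region and a more open region in each cell cannot be told apart. How many pups were pooled for a library is not given in the sources used here, so the spread between libraries may be technical in part. H3K27ac at promoters was examined for marker lists of the cell types. Both WT libraries had peaks at 77.1% of all promoter regions. The share was lower in every cell type list, with 24 of 37 for the astrocyte lineage, 14 of 22 for the oligodendrocyte lineage, 9 of 20 for interneurons, 2 of 5 for meningeal fibroblasts, 2 of 9 for projection neurons, 1 of 6 for endothelial and mural cells and 0 of 2 for microglia and myeloid cells. Several lists held few promoters, so these counts do not settle the makeup of the sorted population. At the Tcf4 gene, 9 consensus regions differed by -0.63 to 0.22, and none was a gaining or losing region. Accessibility around the gene does not show whether the floxed exon was deleted.

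Accessible regions away from promoters are mostly enhancers, stretches of DNA where transcription factors displace nucleosomes. H3K4me1 marks enhancers in general, H3K27ac those that are active, and H3K27me3 chromatin repressed by Polycomb. Tcf4 is a class I basic helix-loop-helix factor, or E protein, that binds E-boxes. Nuclear factor I (NFI) proteins are the products of Nfia, Nfib, Nfic and Nfix, bind TTGGC half-sites and are known for driving astrocyte differentiation.

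The NFI core TTGGCA had the highest ratio of gaining to other distal windows among runs of 6 bases, as described further on. The windows shown first hold this core and belong to members nearest a listed gene or to the 10 members with the largest differences among those with newly called H3K27ac peaks. Each spans 75 bases on either side of the strongest ATAC-seq summit and was read from the plus strand of GRCm38 as held by RefSeq. Capitals mark the core on either strand (TTGGCA or TGCCAA). The windows lie at chr4:58196899-58197049 (nearest gene Svep1, an intron of Gm26889), chr15:8781325-8781475 (intergenic, 70281 bp before the start of Slc1a3), chr5:88946178-88946328 (intron of Slc4a4), chr4:97997237-97997387 (intron of Nfia), chr6:114159090-114159240 (intron of Slc6a11) and chr4:64046922-64047072 (promoter of Tnc).
Svep1: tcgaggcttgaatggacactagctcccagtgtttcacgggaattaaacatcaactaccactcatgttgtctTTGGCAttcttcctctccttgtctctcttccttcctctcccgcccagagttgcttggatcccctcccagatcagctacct
Slc1a3: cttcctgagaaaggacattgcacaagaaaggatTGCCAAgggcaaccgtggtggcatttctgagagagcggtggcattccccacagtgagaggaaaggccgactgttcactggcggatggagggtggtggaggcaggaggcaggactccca
Slc4a4: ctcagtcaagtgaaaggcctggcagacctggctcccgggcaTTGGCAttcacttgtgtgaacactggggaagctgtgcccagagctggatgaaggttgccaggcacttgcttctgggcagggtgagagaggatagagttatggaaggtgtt
Nfia: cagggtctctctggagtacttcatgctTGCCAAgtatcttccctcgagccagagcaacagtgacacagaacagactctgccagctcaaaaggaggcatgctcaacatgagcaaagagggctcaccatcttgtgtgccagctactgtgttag
Slc6a11: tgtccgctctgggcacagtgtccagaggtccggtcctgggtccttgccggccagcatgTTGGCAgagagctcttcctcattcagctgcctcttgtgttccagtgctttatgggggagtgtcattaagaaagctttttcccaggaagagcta
Tnc: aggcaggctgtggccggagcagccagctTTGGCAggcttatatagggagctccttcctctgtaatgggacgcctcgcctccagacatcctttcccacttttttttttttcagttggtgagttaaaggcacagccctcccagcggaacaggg
Each window held 1 such core, and the regions differed between the genotypes by 3.49, 2.61, 2.08, 1.68, 1.62 and 1.07 on the log2 scale, in the same order.

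A 7th window is shown for its Tcf4 peak. It lies at chr10:85026110-85026260, between genes, with Fhl4 as the nearest gene, and capitals mark its 2 matches to the general E-box CANNTG.
Fhl4: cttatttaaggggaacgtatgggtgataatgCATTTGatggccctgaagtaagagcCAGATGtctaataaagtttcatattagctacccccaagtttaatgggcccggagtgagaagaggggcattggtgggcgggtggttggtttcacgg
Both anti-Flag libraries had a strong peak in this region, with fold enrichments of 12.2 and 16.0. Neither capital run is CAGCTG, the E-box core counted in all regions further on.

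The values that chose the members are given as a description. The difference ran from 1.001 to 5.26, with a median of 1.40, and 529 regions (57.6%) lay under 1.5. A difference of 2 or more was found at 188 regions and of 3 or more at 16. The regions just inside the threshold differed by 1.0012 (nearest Cngb1), 1.0013 (Gm22780) and 1.0013 (Egfr), and those just outside by 0.9998 (Chek2), 0.9988 (Gm26416) and 0.9987 (Gm25225). In WT cells the gaining regions were weakly accessible, with a median concentration of 4.77 against 7.07 over all consensus regions. In Tcf4 cKO cells the median was 6.25, still under the 7.003 of all regions. ATAC-seq peaks lay at 55.3% and 78.9% of the members in the WT libraries and at 100% in each Tcf4 cKO library. No peak was called in either WT library at 170 members, and peaks were called in both at 484. The lower WT share came from the library with the smaller number of peaks (54162 against 72308).

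Most gaining regions were distal. Introns held 395 and intergenic sequence 384, whereas 68 lay within 1 kb of a transcription start site (7.41%, Wilson 95% interval 5.89 to 9.28). Of all consensus regions 43.3% were promoters, and of the losing regions 7.38%. The gaining regions lay a median of 24468.5 bp from the nearest start site, losing regions 19767 bp, and the 16115 other distal regions, which were neither promoters nor gaining or losing, 19182 bp. GC content averaged 49.1% in gaining and 49.1% in other distal regions. Repeats made up 11.1% of gaining regions and 11.5% of other distal ones, values close to each other. They were spread over the autosomes, from 1.90% of the consensus regions of chromosome 7 to 4.17% on chromosome 14, with 5 of 727 (0.688%) on X.

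H3K4me1 was already common at the gaining regions in WT cells and was called at more of them in Tcf4 cKO cells. Peaks lay at 59.2% and 66.4% of the members in the WT libraries and at 85.3% and 80.8% in the Tcf4 cKO libraries. Both Tcf4 cKO values were above both WT values, and the means rose from 62.8% ± 5.16 to 83.1% ± 3.16 (SD, n = 2). The difference of 20.3 percentage points had p = 0.33 in an exact two-sided permutation test over libraries, the smallest p that 2 against 2 libraries can give. The mark was also called more often elsewhere: by 8.23 points at other distal regions and by 11.99 points over all regions. At losing regions it fell by 8.35 points, from 64.8% to 56.5%. The Tcf4 cKO libraries had 72790 and 65049 peaks against 51510 and 59526 in WT. Relative to other distal regions in the same library, gaining regions stood 4.98 and 4.75 points lower in WT and 7.88 and 6.47 points higher in Tcf4 cKO (exact permutation p = 0.33). The lower WT share was not seen at like WT accessibility, between the quartiles of the gaining regions (4.17 to 5.35), a range chosen after seeing the data. Other distal regions in that range had means of 57.2% in WT and 66.2% in Tcf4 cKO. Distal gaining regions in it had 67.5% and 84.3%. The 2 sets were alike in WT concentration only. The median width was 784 bp for the distal gaining and 604 bp for the other distal regions, and wider regions can meet a peak more easily. WT ATAC-seq peaks were called at 59.9% and 91.1% of the distal gaining and at 90.2% and 99.3% of the other distal regions. The effect of these differences was not tested.

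New H3K4me1, with peaks in each Tcf4 cKO library and no WT library, was found at 94 members (10.2%), against 5.42% of all consensus regions. The opposite pattern was found at 5 (0.545%, against 0.95% of all). All 4 libraries had a peak at 429 members (46.7%), near the 43.7% of all regions and 49.4% of other distal regions, and none had one at 66 (7.19%, against 12.5% and 10.03%). Between the WT quartiles, all 4 had a peak at 49.7% of distal gaining and 35.5% of other distal regions. None had one at 6.29% and 15.1%. New H3K4me1 was found there at 7.69% (interval 5.53 to 10.6) and 5.46% (interval 4.46 to 6.68), and these intervals overlap. The rise in the H3K4me1 share was larger at the 188 members with a difference of 2 or more, at 38.8 points. This went mostly with a lower WT share. In distal regions the WT libraries had 65.0% and 71.0% at differences of 1 to 1.5 and 45.7% and 48.0% at 2 or more. The Tcf4 cKO libraries had 84.0% and 79.6%, and 86.9% and 83.4%, in the same order. Among the listed genes, new H3K4me1 peaks lay at the promoter of Aldh1l1, the folate enzyme used as an astrocyte marker, with fold enrichments over background of 2.73 and 3.14 in the Tcf4 cKO libraries. They also lay in an intron of Nfia, with 3.34 and 3.24.

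H3K27ac was called at more gaining regions in Tcf4 cKO than in WT cells. In WT, 15.5% and 13.3% of the members carried a peak, and in Tcf4 cKO 36.7% and 31.6%. The Tcf4 cKO libraries were both higher, with means of 14.4% ± 1.54 and 34.2% ± 3.62 (SD, n = 2), a difference of 19.8 points (exact two-sided permutation test, p = 0.33). At other distal regions the mean share went from 43.3% to 37.0%, and the library values overlapped. At losing regions it went from 39.3% to 15.1%. The small WT share went with low WT accessibility: among 1629 other distal regions whose WT concentration lay between the quartiles of the gaining regions (4.17 to 5.35), 13.0% had a peak in WT and 12.1% in Tcf4 cKO. The 429 distal gaining regions in that range went from 12.35% to 32.2%. The 6190 other distal regions within the quartiles of the gaining regions' Tcf4 cKO concentration (5.81 to 6.76) had 30.4% in Tcf4 cKO. With peaks of a -log10 q-value of 5 or more alone, the shares were 3.70% and 1.961% in WT and 12.5% and 8.82% in Tcf4 cKO, and the difference was 7.84 points.

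**Figure D1:**
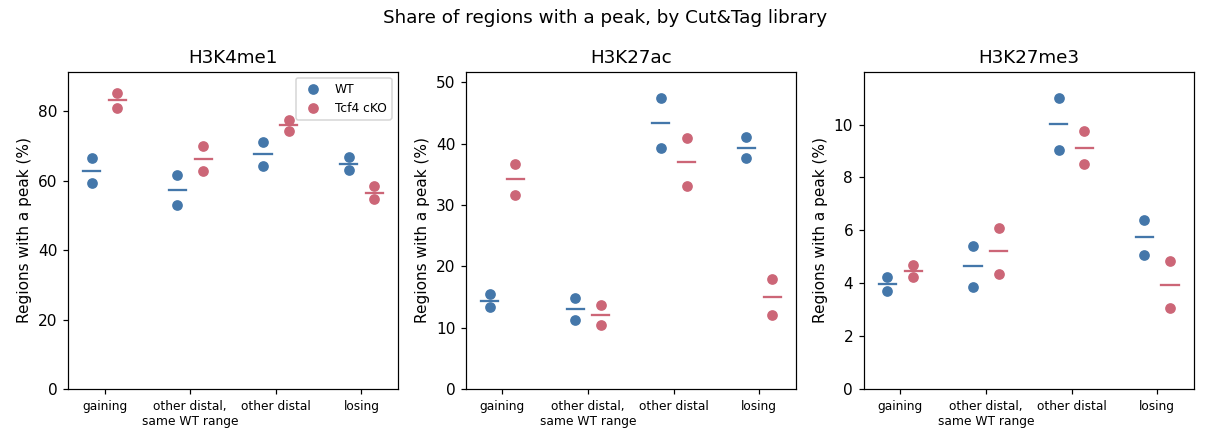
Share of regions with a peak (percent, y axis) for H3K4me1, H3K27ac and H3K27me3 in each Cut&Tag library (points) with the mean of each genotype (bars), for gaining regions, other distal regions of like WT accessibility, other distal regions and losing regions. H3K27ac at gaining regions stood at 15.5% and 13.3% in WT and at 36.7% and 31.6% in Tcf4 cKO.

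At 85 members (9.26%, interval 7.55 to 11.3) H3K27ac was new by the same definition, against 1.35% of all consensus regions and 1 of 1342 losing regions. The opposite pattern was found at 5 members, or 0.545%, against 3.55% of all. It needs a peak in both WT libraries, which 60 members (6.54%) had, against 16062 of the 32120 consensus regions. At like WT accessibility this opposite pattern was found at 0.699% of distal gaining regions (interval 0.238 to 2.04). Other distal regions of like WT accessibility had 1.47% (interval 0.992 to 2.18), and these intervals overlap. Of the 85 regions, 56 had H3K4me1 in both WT libraries, as did 50.8% of all members, 7 had new peaks of both marks, and 5 were promoters. Among all members, 293 (31.9%) carried H3K4me1 in both WT libraries with H3K27ac in neither, against 12.2% of all consensus regions and 18.1% of other distal regions. Between the WT quartiles of the gaining regions, this state was found at 158 of 429 distal gaining regions (36.8%, interval 32.4 to 41.5). Other distal regions in that range had 28.2% (interval 26.0 to 30.4). No H3K27ac peak was called in any of the 4 libraries at 460 members (50.1%), against 25.2% of all regions, 36.3% of other distal regions and 71.5% of other distal regions of like WT accessibility.

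The member with the largest difference among these 85 lay nearest Svep1, an extracellular matrix protein gene, at chr4:58196729-58197872. H3K27ac peaks there had fold enrichments of 3.42 and 4.14 in Tcf4 cKO, and H3K4me1 was present in all 4 libraries. The region nearest Dbx2, a homeobox gene, had H3K27ac enrichments of 5.04 and 5.47, and the region in an intron of Prkdc, which encodes a DNA repair kinase, 5.58 and 5.17 together with new H3K4me1 peaks. An exon of Gpr89, which encodes a Golgi anion channel, held a region with 3.69 and 5.67. The others of the 10 largest were nearest Gm10556, Gm25115, Hectd2os, Gm26103, Necab3 and Aldh1l1, and their enrichments in Tcf4 cKO ran from 3.04 to 4.83. None of these regions had a WT peak for H3K27ac, by the way they were chosen. H3K4me1 was present in both WT libraries at 6 of the 10, and 4 of the 10 had no WT ATAC-seq peak.

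H3K27me3 was rare at the gaining regions in both genotypes. Peaks lay at 4.25% and 3.70% of the members in WT and at 4.68% and 4.25% in Tcf4 cKO, a difference of 0.490 points (exact permutation test, p = 0.67). No library had a peak at 835 members (91.0%, interval 88.9 to 92.6). Other distal regions of like WT accessibility were similar, with no peak in any library at 90.1%, against 81.9% of all other distal regions. A loss of the mark, with a peak in each WT library and in no Tcf4 cKO library, was found at 2 members (0.218%, against 1.72% of all regions), and a new mark at 7 (0.763%, against 1.34%). At like WT accessibility the gap in losses was not seen, with 1 of 429 distal gaining (0.233%) and 4 of 1629 other distal regions (0.246%). A new mark was found there at 0.699% (interval 0.238 to 2.04) and 0.246% (interval 0.0955 to 0.630). The 2 members that lost the mark were an intergenic region nearest A230072I06Rik at chr8:12135325-12136251, with WT fold enrichments of 1.46 and 1.42, and an intron of Tenm3, a teneurin of neuronal wiring, at chr8:48477296-48478121, with 2.14 and 2.38. The Tenm3 region also had new H3K4me1 peaks, of 4.06 and 4.09, and held an NFI core.

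Tcf4 occupied few gaining regions. Reproducible anti-Flag regions covered at least 30% of 21 members (2.29%, interval 1.501 to 3.47), against 36.3% of all consensus regions, 23.0% of other distal regions and 41.7% of losing regions. In single libraries a peak touched 95 members (10.3%) and 37 (4.03%), against 62.1% and 39.2% of all consensus regions. At like WT accessibility the shares were 6.29% and 1.86% of distal gaining and 10.7% and 2.15% of other distal regions. No member with a difference of 2 or more was covered. With anti-Flag peaks of a -log10 q-value of 5 or more, 0.436% of the members were covered against 21.8% of all regions, and with the first library alone 8.71% against 58.7%.

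Coverage by Tcf4 followed WT accessibility in every set of regions, and at the same accessibility gaining regions were close to other distal regions. With a WT concentration of 5 to 5.5, Tcf4 covered 1.12% of 178 gaining, 1.254% of 1755 other and 12.8% of 149 losing distal regions. With 5.5 to 6, it covered 3.96%, 5.64% and 15.6%. With 6 to 6.5, it covered 3 of 35 gaining regions (8.57%), 10.6% of other and 38.4% of losing regions. Between the WT quartiles of the gaining regions, a range chosen after seeing the data, 1 of 429 gaining (0.233%, interval 0.0412 to 1.31), 11 of 1629 other (0.675%, interval 0.377 to 1.21) and 18 of 111 losing distal regions (16.2%, interval 10.5 to 24.2) were covered. The gap to all consensus regions was therefore not seen against regions as weakly accessible in WT, whereas the gap to losing regions was.

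**Figure D2:**
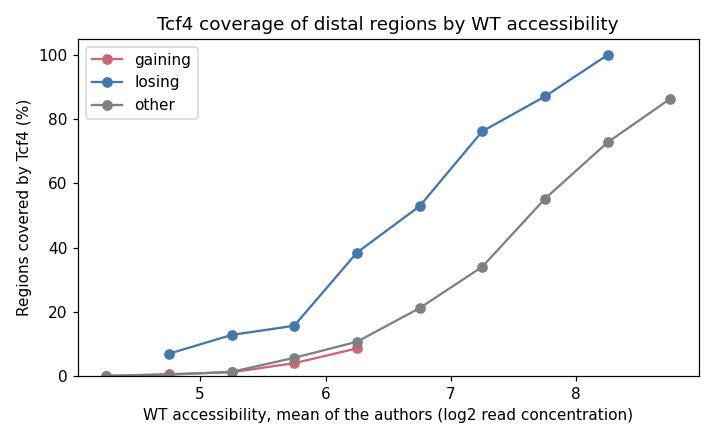
Share of distal regions covered by reproducible Tcf4 regions (percent, y axis) by WT concentration in steps of 0.5 (log2, x axis), for classes with at least 20 regions. The gaining line runs beside that of other regions, with 8.57% and 10.6% at 6 to 6.5, and under that of losing regions, with 38.4%.

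Of the 21 covered members, 5 were promoters, against 63.6% of all consensus regions covered by Tcf4. H3K27ac was present in both WT libraries at 9 of them (42.9%) and in both Tcf4 cKO libraries at 13 (61.9%), against 82.2% and 74.4% of all covered regions and 64.9% and 52.8% of covered other distal regions. The general E-box CANNTG lay within 75 bp of the summit at 8 (38.1%), which is not above the 46.3% of all covered regions or the 65.1% of covered other distal regions. Over all members it was present in 52.9%, against 58.7% of other distal and 49.4% of all regions. The covered members with the largest differences were a region in the 3' UTR of Trmt10a (1.72), the promoter of Glud1, the glutamate dehydrogenase gene (1.39), an intergenic region nearest Eepd1 (1.37), the region nearest Fhl4 shown above (1.26) and the promoter of Sfxn5, a mitochondrial carrier gene (1.26). Tcf4 fold enrichments in these 5 ran from 3.89 to 12.2 in the first library and from 4.47 to 16.0 in the second. The Fhl4 region had no peak of any histone mark, and at Eepd1 and Sfxn5 H3K27ac was called in all 4 libraries.

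NFI cores were concentrated at the summits of the gaining regions. TTGGCA, searched on both strands within 75 bp of the strongest ATAC-seq summit, was present in 224 members (24.4%, interval 21.7 to 27.3). It was present in 12.6% of other distal regions, 11.97% of those of like WT accessibility, 13.1% of those of like Tcf4 cKO accessibility, 8.94% of losing regions and 9.49% of all regions. Windows with 2 or more cores made up 2.72% of gaining and 0.968% of other distal windows. Promoters did not set the share, which was 24.4% in distal members and present in 17 of 68 promoters. The full palindrome, TTGGC and GCCAA set 5 bases apart, was found in 1 member (0.109%). It was rare everywhere, with 12 of 32120 consensus regions (0.0374%). A match describes the letters in the window and does not show that a factor was bound.

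By position, the 50 bp on either side of the summit held 10.9 and 11.2 cores per 100 gaining regions, compared with 3.38 at 450 to 500 bp before the summit. Other distal regions had 4.72 and 5.01 next to the summit, and losing regions 2.83 and 3.43, close to their level farther out. The 1998 sequences of 6 bases that were present in at least 1% of other distal windows were ranked by the ratio of the gaining to the other distal share, with a sequence and its reverse complement counted as 1. TTGGCA came first, with a ratio of 1.93. Next came CTTGGC (1.81), AGTTGG (1.77) and GTTGGC (1.76), and TTTGGC was at rank 11 (1.57). The half-site TTGGC was held by 4 of the 11 highest-ranked sequences, at ranks 1, 2, 4 and 11, and these overlap one another.

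**Figure D3:**
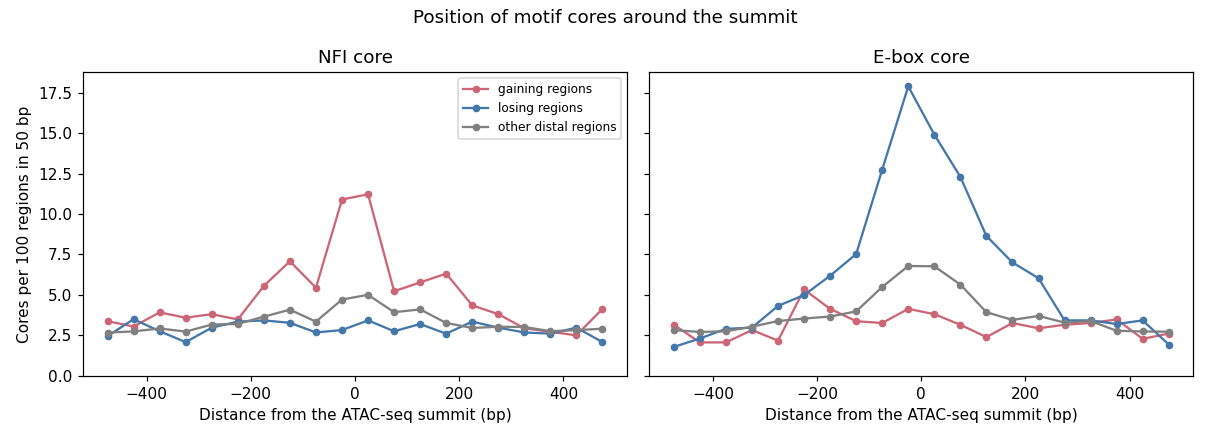
Cores per 100 regions in bins of 50 bp (y axis) by distance from the strongest ATAC-seq summit (bp, x axis) for the NFI core TTGGCA and the E-box core CAGCTG, in gaining, losing and other distal regions. The NFI core peaks at 11.2 in gaining regions and the E-box core at 17.9 in losing regions.

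The E-box core CAGCTG showed the opposite arrangement. It was present in 10.5% of gaining windows (96 regions, interval 8.64 to 12.6), 17.3% of other distal windows and 37.2% of losing windows. Other distal regions of like WT accessibility had 12.6% (interval 11.1 to 14.3), which overlaps the gaining share. CAGCTG ranked first of the 1998 sequences by ratio in losing regions, with 2.15, and 1809th in gaining regions, with 0.604. The related core CATCTG was present in 11.3% of gaining, 14.6% of other distal and 26.7% of losing windows. Around the gaining summits CAGCTG was nearly level, with 4.14 and 3.81 cores per 100 regions next to the summit and 3.16 at 450 to 500 bp before it.

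Other cores had shares near those of other distal regions or of those of like WT accessibility. The SOX cores ACAAAG and ACAATG were present in 20.5% and 8.61% of gaining and in 20.99% and 10.3% of other distal windows. The homeodomain core TAATTA was present in 3.38% and 3.12%, and the forkhead core TGTTTAC in 2.51% and 2.33%. The TEAD core GGAATG had 11.1% in gaining windows, 8.72% in other distal ones and 10.7% in those of like WT accessibility. The STAT core TTCNNNGAA had 5.88%, 4.58% and 5.46%, and the AP-1 core TGANTCA 4.68%, 5.62% and 5.59%. The cores GGGCGG of KLF and SP factors and CCGGAAG of ETS factors were less frequent than in other distal windows, with 4.90% against 9.18% and 0.545% against 1.502%, and near those of like WT accessibility, with 5.10% and 0.737%.

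The members were also split by the NFI core, which 224 had and 694 lacked. H3K27ac was new at 26 with the core (11.6%, interval 8.05 to 16.5) and at 59 without (8.50%, interval 6.65 to 10.8), and these intervals overlap. Tcf4 covered 1.79% and 2.45%. The median accessibility difference was 1.49 with the core and 1.37 without.

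Across all distal regions the measures changed gradually with the accessibility difference. NFI cores were present in 11.98% of windows at differences of 0 to 0.25, 17.3% at 0.5 to 0.75, 20.99% at 1 to 1.5 and 29.1% at 1.5 to 2. H3K27ac in the WT libraries went from 45.7% and 37.2% at 0 to 0.25 to 5.71% and 2.29% at 2 or more. In the Tcf4 cKO libraries it was 42.6% and 33.7% at 0 to 0.25 and 32.0% and 25.7% at 2 or more. The Tcf4 cKO values exceeded both WT values from 0.75 upward. No break was seen at the threshold of 1.

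**Figure D4:**
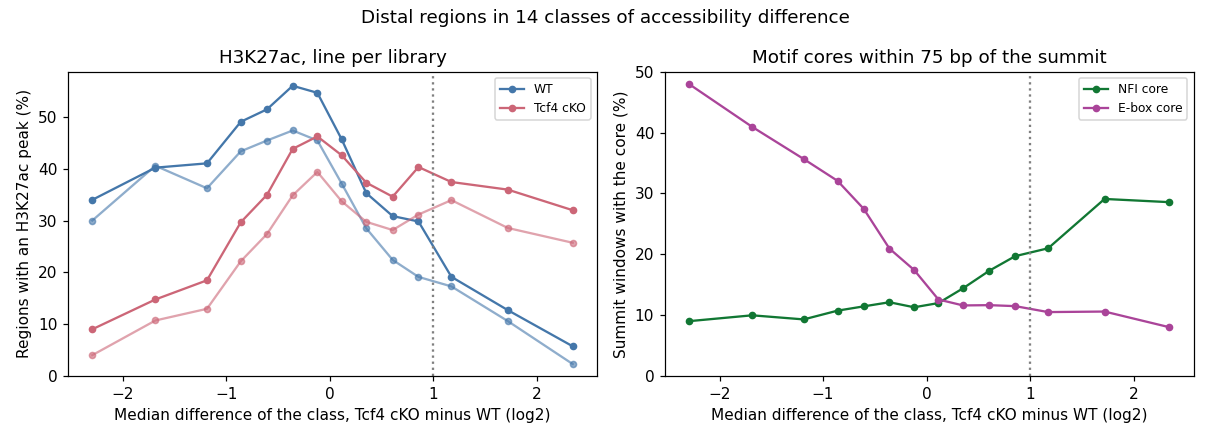
Distal regions in classes of accessibility difference (median log2 difference of each class, x axis; dotted line at 1), with the share with an H3K27ac peak in each library (left) and the share of summit windows with the NFI core or the E-box core CAGCTG (right, percent). In the top class H3K27ac stands at 5.71% and 2.29% in WT and at 32.0% and 25.7% in Tcf4 cKO.

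The 918 regions had 850 different nearest genes, and 785 of these had a single member. Slc6a11, Nfia and Grifin had 3 each, the most of any gene, of 5, 11 and 3 consensus regions. They are named because of this count, after their values were seen. The nearest gene is a position and not a shown target. Of 104 consensus regions nearest the 35 astrocyte-lineage genes, 17 were gaining (16.3%, with 2.86% as background) and 2 losing (1.92%, against 4.18% of all regions). These shares come from the contrast that chose the members and are given without a test. The 17 regions belonged to 11 genes, 3 were promoters, 2 were covered by Tcf4 and 5 held an NFI core, near the 24.4% of all members. H3K4me1 was present in both WT libraries at 10 and in both Tcf4 cKO libraries at 11, against 50.8% and 75.3% of all members. H3K27ac was present in both WT libraries at 1 and in both Tcf4 cKO libraries at 7, against 6.54% and 22.2% of all members and 16062 and 14530 of the 32120 consensus regions. It was new at 4, against 9.26% of all members, and lost at 0.

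Among membrane transporters, Slc1a3 encodes the astrocytic glutamate transporter GLAST. Its 2 members had WT and Tcf4 cKO concentrations of 3.98 and 6.59 upstream of the gene, and of 5.07 and 6.97 in an intron at chr15:8706032-8706518. Neither had an ATAC-seq peak in a WT library, and H3K27ac was not called there in any library. Slc6a11 encodes the GABA transporter GAT-3, and its members lay in introns of the gene, at chr6:114144417-114145053, chr6:114158826-114159682 and chr6:114173806-114175173. The middle one, with an NFI core, rose from 5.98 to 7.59 and had new H3K27ac peaks of 3.52 and 3.23. The last, with Tcf4 over 53.3% of its length, had H3K27ac in all 4 libraries. Slc4a4, a sodium bicarbonate cotransporter gene, had a member with H3K27ac of 3.83 in 1 WT library and 4.27 and 3.77 in the Tcf4 cKO libraries. Aqp4, the astrocytic water channel gene, had an intergenic member 47628 bp from its start, with concentrations of 5.73 and 6.78 and new H3K27ac peaks of 3.93 and 4.50.

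Among transcription factor genes, Nfia had 3 intronic members with differences of 1.68, 1.24 and 1.14, at chr4:97996795-97997603, chr4:97953487-97954362 and chr4:97893801-97894860. The one with the largest difference held the NFI core shown above, had an ATAC-seq peak in 1 WT library (3.39) and in both Tcf4 cKO libraries (7.34 and 7.58), and had no H3K27ac peak. Nfix had a member 1052 bp from its start, at chr8:84712310-84713016, which rose from 4.66 to 6.87. It had ATAC-seq peaks in the Tcf4 cKO libraries alone (4.24 and 5.12) and no peak of H3K4me1, H3K27ac, H3K27me3 or Tcf4 in any library.

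Among the other astrocyte genes, Aldh1l1 had its promoter (4.55 and 6.82) and a region 8711 bp upstream, in an intron of another transcript of the gene (5.04 and 7.46). The upstream region had H3K4me1 in all 4 libraries and new H3K27ac peaks of 3.45 and 3.04. At the promoter H3K27me3 was called in 1 WT library (2.59) and in no other. The promoter of Acsbg1, an acyl-CoA synthetase gene, rose from 5.68 to 7.14 and had new H3K27ac peaks of 3.17 and 2.97. An intergenic region 15724 bp before the start of Fgfr3, an FGF receptor gene of astrocyte precursors, rose from 6.01 to 7.48, with H3K4me1 in all 4 libraries and H3K27ac in none. Mfge8, a secreted phagocytosis factor, had a member with Tcf4 over 48.5% of its length, H3K27ac in 1 library of each genotype and a difference of 1.10. The promoter of Tnc, the matrix protein tenascin-C, differed by 1.07 and carried H3K27me3 in both WT libraries (2.73 and 2.499) and in 1 Tcf4 cKO library (3.26).

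**Figure D5:**
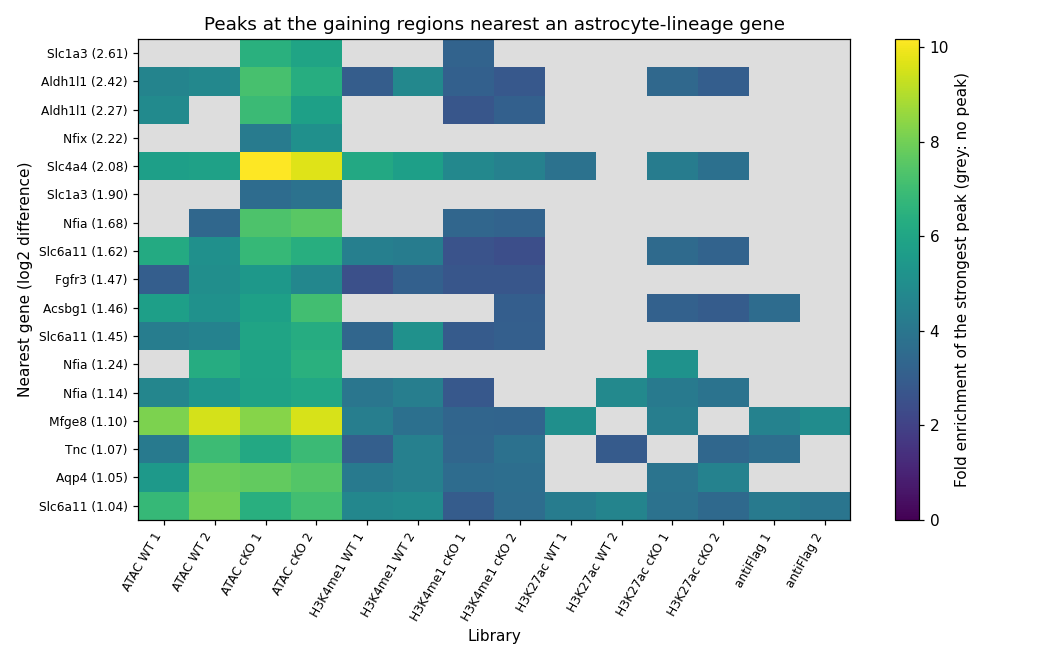
Fold enrichment of the strongest peak (colour, grey where no peak was called) in each ATAC-seq, H3K4me1, H3K27ac and anti-Flag library (columns) at the 17 gaining regions nearest an astrocyte-lineage gene (rows, with the log2 difference in brackets). Accessibility chose these regions, and every member had ATAC-seq peaks in both Tcf4 cKO libraries. In WT, 3 rows had none.

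The lists for other cell types were small. At the background of 2.86% gaining and 4.18% losing, each would hold few of either. Of 80 regions nearest oligodendrocyte-lineage genes, 1 was gaining and 5 losing, and the member lay nearest Sox8, a SoxE factor, with concentrations of 5.68 and 6.90. Of 54 regions nearest interneuron genes, 1 was gaining (1.85%) and 4 losing (7.41%). The member lay nearest Nkx2-1, the homeobox gene of the ventral telencephalon, with 7.06 and 8.06. No peak of a histone mark was called in any library at either region. The projection neuron list (31 regions), the microglial and myeloid list (13) and the endothelial and mural list (18) held 0 members. Of the 13 microglial and myeloid regions, 2 were losing (15.4%). The meningeal fibroblast list held 1 of 11 (9.09%), nearest Dcn, the proteoglycan decorin, at a distance of 228624 bp.

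Of 107 regions nearest FGF, BMP and Notch pathway genes, 5 were gaining (4.67%, against 2.86% of all) and 5 losing (4.67%, against 4.18%). Besides the Fgfr3 region the gaining ones lay nearest Bmpr1b, Id2 and Etv1. Bmpr1b encodes a type I BMP receptor, and its promoter rose from 3.85 to 5.42 and an intronic region from 4.40 to 6.501. Id2, a helix-loop-helix inhibitor that binds E proteins and a target of BMP signalling, had an intergenic member 143689 bp away that rose from 4.80 to 7.25. H3K27ac was called there in 1 WT library (4.47) and in both Tcf4 cKO libraries (5.96 and 4.78). The member nearest Etv1, an ETS factor of FGF signalling, lay 270700 bp away in an intron of Dgkb.

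Several of the members with the largest differences had few histone peaks or none. The largest difference, 5.26, was found in an intron of Sntg1 nearest Gm16284, at chr1:8410587-8411271, where the WT mean was 0 and the Tcf4 cKO mean 5.26. This region was masked as repeat over 100% of its length. The region in an intron of Tmprss11d (3.25) was masked over 98.8%. They were the 2 members with a repeat share of 90% or more, and neither had a peak of any histone mark or of Tcf4 in any library. None of the 10 members with the largest differences had an ATAC-seq peak in a WT library, 2 had new H3K4me1 peaks (nearest Gm5356 and Wdr7) and 1 new H3K27ac (nearest Svep1). The others lay nearest ENSMUSG00000055099, CN725425, Inpp4b, Nufip1 and Gm11449, with differences of 3.26 to 3.86. At the Gm11449 region H3K27ac was called in both WT libraries (4.45 and 4.50) and in 1 Tcf4 cKO library (3.93).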

How the data were processed

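ATAC-seq and Cut&Tag libraries were grouped by genotype, assay and replicate from their deposited labels. Reads were trimmed, mapped to mm10 by Bowtie 2 and freed of duplicates by the authors, who called peaks per library with MACS2. The deposited peak lists give a fold enrichment over background and -log10 p-values and q-values. The authors' deposited region table, made with DiffBind from all ATAC-seq libraries and annotated with ChIPseeker, gives a mean log2 read concentration per genotype, with no SD and no values per library. Its columns of fold change, p-value and FDR and a deposited footprint table hold the authors' own comparisons and were not used. Read depth is not known from these files, and peak numbers ran from 15085 to 72790. A histone peak was assigned to a region by an overlap of 1 bp, so the absence of a peak means a signal under the caller's threshold. Tcf4 coverage needed reproducible anti-Flag regions over 30% of the region. Shares carry Wilson 95% intervals, which cover counting error only, and libraries were compared by exact permutation tests.

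The members and gene lists were chosen with earlier results of these data known. The named regions are the 10 members with the largest differences and ATAC-seq peaks in both Tcf4 cKO libraries, genes with 4 or more members (0 were found), members nearest a listed gene, the 10 largest with new H3K27ac, those that lost H3K27me3 and the 5 largest with Tcf4. The interval left out ran from 77900000 to 78100000 on chromosome 2. Gene symbols were given for 907 of the 918 members. Repeats are the soft-masked bases of GRCm38. Overlap and motif steps were tested on simulated data. The software was Python 3.11.15, numpy 2.4.6, pandas 2.3.3, scipy 1.17.1, pysam 0.24.0 and matplotlib 3.10.9. Single-cell RNA sequencing was not analysed here.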

Additional observations from a re-analysis of the deposited data

How the results depend on the processing

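The number of gaining regions was 918, and 1094 after centring the differences on the median of all regions and 921 with the chromosome 2 interval kept in. It was 389 at a difference of 1.5 or more, and 188 at 2 or more, and 767 regions dropped out when the Tcf4 cKO mean had to reach the median of all regions. Without each replicate in turn, the share difference ran from 16.6 to 23.9 points for H3K4me1, from 17.2 to 22.3 for H3K27ac and from 0.218 to 0.763 for H3K27me3. For members with a difference of 2 or more these values were 38.8, 23.7 and 1.06 points. With a -log10 q-value of 5 or more, H3K27ac gave 7.84 points and H3K27me3 turned to -0.109 points, and the cause was not tested. A replicate block left the differences at 20.3, 19.8 and 0.490 points, with p = 0.50 in an exact sign-change test within pairs, the smallest that 2 pairs allow. The correlation of same-numbered libraries' deviations was -0.0046 to 0.022, which gave no sign of pairing by number. With 2 libraries per genotype it cannot exclude such a pairing.

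Tcf4 coverage of 2.29% was 0.436% at the stricter q-value, 2.94% and 8.71% without replicate 1 and without replicate 2, 0% at a difference of 2 or more, and 0.233% in distal members within the WT quartiles, an alternative chosen after seeing the data. The promoter share was 11.4% with GENCODE M21 start sites, against 47.2% of all regions. The NFI core share was 35.9% with 150 bp on each side, 19.7% around the region centre, 57.6% in whole regions and 28.2% at a difference of 2 or more. Other distal regions had 21.8%, 12.1% and 43.8% in the first 3 of these windows. The E-box core share was 17.97% with 150 bp, 39.3% in whole regions and 8.51% at a difference of 2 or more, against 27.3% and 49.9% of other distal regions in the first 2. The members nearest astrocyte genes, 17 by the authors' annotation, numbered 15 by the nearest GENCODE start site and 5 at a difference of 2 or more. A different rule, lying within 100 kb of such a gene, gave 28. These counts are given without a background share. The repeat share was 7.60% in the summit window. For the motif cores, window size itself raises the chance of a match.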

Other observations

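Of the 918 gaining regions, 106 (11.5%) had another member within 50 kb. This count is given without a background share, so it does not show whether members were clustered or scattered. The 1741 other consensus regions within 50 kb of a member had a median difference of -0.06, against -0.10 over all other regions, and 41.5% of them were above 0 against 34.7%. Of these neighbours 62 were losing regions (3.56%).

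Some windows of 1 Mb held several members. A window on chromosome 7 held 5, nearest Shank2, Ppfia1 (2), Ano1 and Ccnd1, the cyclin D1 gene, of 27 consensus regions. A window on chromosome 4 had 4 members among 7 consensus regions, nearest Tnc, 8030451A03Rik, Gm11217 and Gm23950, and its median difference was 1.07. A window on chromosome 19 had 4 members of 18, of which 2 lay nearest Trpm3, a cation channel gene. These windows were chosen for their counts and carry no test.

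In the interval that was left out, the region nearest Cwc22 rose from 8.39 to 12.3 and those nearest Gm13726 and 4930440I19Rik by 4.23 and 3.95, while another region nearest 4930440I19Rik differed by -0.14.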
